A study of Mus musculus with 6 samples.

Results

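The guanylate-binding proteins are a family of large interferon-induced GTPases, and 10 mouse genes of the family (Gbp2, Gbp2b, Gbp3, Gbp4, Gbp5, Gbp7, Gbp8, Gbp9, Gbp10 and Gbp11) were each represented by 1 of the 25206 probe sets measured. The members were taken by gene symbol, through the Entrez gene number that names each probe set, and Gbp6 was not analysed here. The family was chosen by name with the JG-98 minus control differences of these same arrays in view, and bright and dim members were set apart by their mean levels, so the differences below are a description and no p-value is given for a member. The 6 samples were RNA from macrophages that had been derived from mouse bone marrow. Of these, 3 had received JG-98, an inhibitor of the Hsp70 chaperones, at 0.3 micromole for 16 hours, and 3 were controls labelled as treated with none. The labels give no strain, age or sex of the mice, no volume for the dose and no vehicle for the controls. Each RNA was hybridised to 1 single-colour Affymetrix array, and all values are the authors' log2 expression values.

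Macrophages make guanylate-binding proteins in response to interferon-gamma and, more weakly, to type I interferons. The proteins assemble on the membranes of intracellular bacteria and of vacuoles that hold parasites such as Toxoplasma, and they help to expose microbial products to inflammasomes, the complexes that activate inflammatory caspases. Their promoters are known to carry 2 kinds of element, the ISRE, which is bound by interferon regulatory factors, and the GAS. In the RefSeq annotation of assembly GRCm38.p6 the family lies in 2 clusters. Gbp5, Gbp7, Gbp3, Gbp2b and Gbp2 lie close together on chromosome 3, and Gbp8, Gbp9, Gbp4, Gbp10 and Gbp11 lie on chromosome 5.

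The labelled cell type was checked first. The 7 measured macrophage markers, among them Cd68, Csf1r and Adgre1, had mean levels between 8.36 and 12.03 on the log2 scale, and their mean per array was 10.19 to 10.25 with JG-98 and 10.26 to 10.31 in controls. The 7 markers of T and NK cells, the main producers of interferon-gamma, lay between 2.29 and 3.95, with array means of 3.05 to 3.30 with JG-98 and 3.13 to 3.22 in controls, and Ifng was among them. The 3 measured B cell, 6 neutrophil and 5 dendritic cell markers lay at 1.83 to 3.04, 2.38 to 3.82 and 3.07 to 3.84. JG-98 replicate 3 stood apart, correlating with the other arrays at 0.992 to 0.993, where the other 5 correlated with each other at 0.995 to 0.996. Differences of the members are therefore also given without it.

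Of the 10 members, 5 gave a signal above that of genes that macrophages should not use. A list of 40 genes specific to other organs, such as those for albumin and insulin, had 37 measured members, with mean levels from 1.63 to 5.59 and a median of 3.47. Their 90th percentile, 4.56, was taken as the limit between bright and dim. Gbp9 (6.79), Gbp8 (6.52), Gbp7 (5.93), Gbp10 (5.44) and Gbp2 (4.83) were bright as means over the 6 arrays. Gbp5 (3.24), Gbp3 (3.11), Gbp2b (2.56), Gbp11 (1.94) and Gbp4 (1.46) were dim. Gbp2 was the member just inside the limit and Gbp5 the one just outside. Gbp2 and Gbp10 still lay below the highest gene of the organ list, and only Gbp8 and Gbp9 would remain bright at a limit of 6. Probe sets differ in how strongly they bind their target, so these levels say which members lie above background and not which transcript is more abundant.

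**Figure D1:**
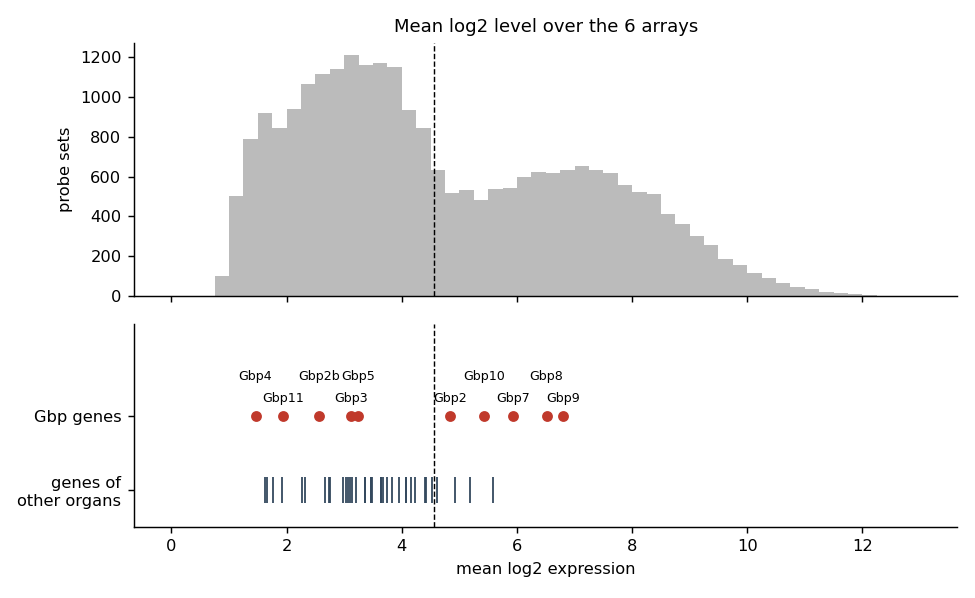
Mean log2 level over the 6 arrays of all probe sets (grey histogram, number of probe sets per bin), of the 10 Gbp genes (red points) and of 37 genes of other organs (blue ticks), with the limit of 4.56 as a dashed line. Gbp2, Gbp10, Gbp7, Gbp8 and Gbp9 lie right of the limit and the other 5 Gbp genes left of it, with Gbp4 below the lowest organ gene.

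With JG-98, 5 of the 10 members had lower values on all 3 treated arrays than on any control array. These were Gbp7, Gbp9 and Gbp2 among the bright members and Gbp3 and Gbp5 among the dim ones. Over all probe sets 8.44% were lower in this way, and the share was 14.5% among bright and 3.64% among dim probe sets. Gbp4, a dim member, was higher without overlap, as were 7.12% of all probe sets and 4.12% of the dim ones. The groups overlapped for Gbp8, Gbp10, Gbp2b and Gbp11. The same 5 lower members and Gbp4 had groups without overlap after median centring or quantile normalization of the arrays. Leaving out an array cannot make such groups overlap. No further member joined them when an array was left out, where 11.9% to 16.7% of all probe sets were lower without overlap. The median difference, JG-98 minus control, was -0.44 over the 5 bright members, -0.05 over the 5 dim ones and -0.25 over all 10, and the median over all probe sets was 0.00.

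In limma's fit across all 25206 probe sets, 0 of the 10 members passed a Benjamini-Hochberg adjusted p under 0.05, and 0.0397% of all probe sets did. At an unadjusted p under 0.05 limma had 5 members, the same 5 that were lower, against 8.32% of all probe sets in either direction and 4.48% lower. With a variance prior that follows the signal level, 2 members passed, Gbp7 and Gbp9, where 1.01% of all probe sets did. The same 2 passed when only bright probe sets were fitted, where 1.36% did. Because the differences were known when the family was chosen, nothing is read from these counts. In RNA pooled from a culture, fewer cells that express a gene and less of its RNA per cell cannot be told apart. The labels do not say that the 3 samples of a group came from separate mice or cultures, so the spread given may be technical.

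**Figure D2:**
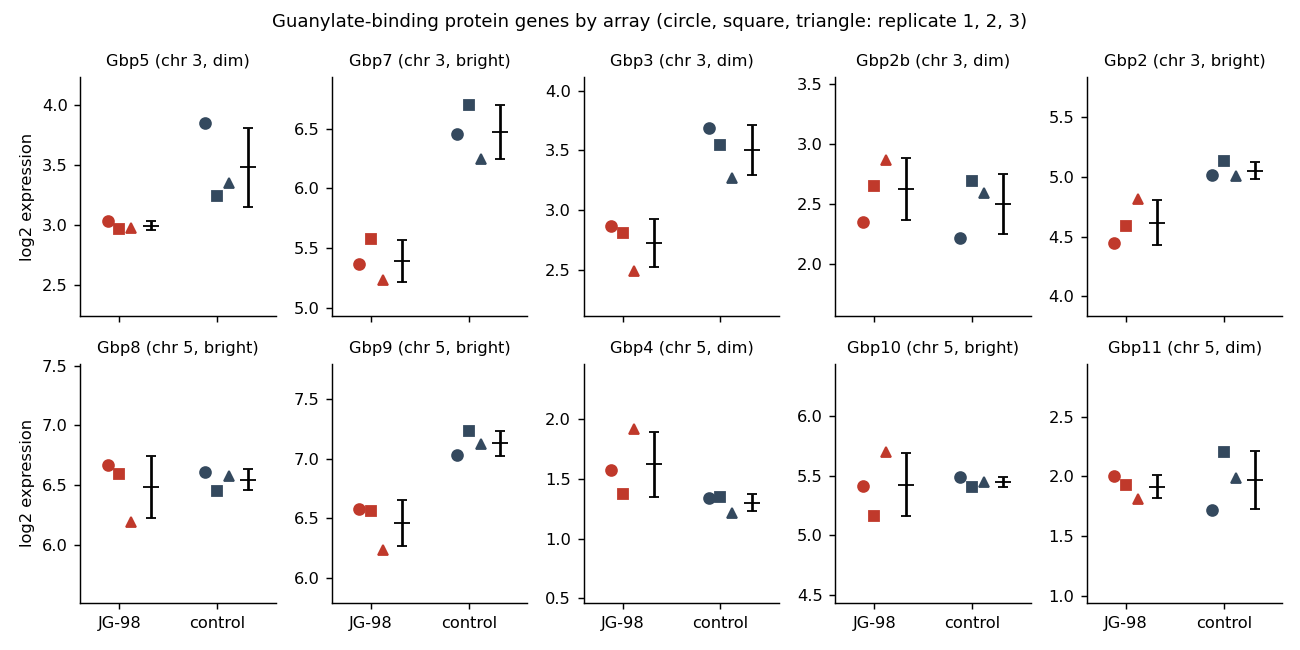
Log2 expression of each Gbp gene on the 3 JG-98 arrays (red) and the 3 control arrays (blue), with circle, square and triangle for replicates 1, 2 and 3 and the mean ± SD at the right of each group; every panel spans 2 log2 units. Gbp5, Gbp7, Gbp3, Gbp2 and Gbp9 have all JG-98 points below all control points, and Gbp4 has them above.

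The 5 members on chromosome 3 all had at least 1 promoter window in the RefSeq table, which was matched by gene number and gives 250 bases before to 50 bases after each annotated start. Gbp8, Gbp9, Gbp4, Gbp10 and Gbp11 had no entry. The windows are shown because interferon-responsive elements are known to lie in promoters of this family. Capitals mark matches to an ISRE core, GAAANNGAAA, or to a GAS, TTCNNNGAA, searched on both strands, and all are from build GRCm38.p6.
Gbp5 (chr3:142496684-142496983, plus strand): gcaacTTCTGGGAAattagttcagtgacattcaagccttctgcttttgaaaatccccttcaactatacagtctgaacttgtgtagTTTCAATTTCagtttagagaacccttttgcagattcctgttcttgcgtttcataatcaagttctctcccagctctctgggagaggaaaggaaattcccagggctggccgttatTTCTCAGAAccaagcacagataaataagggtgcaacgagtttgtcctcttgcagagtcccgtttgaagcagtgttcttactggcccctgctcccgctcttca
Gbp7 (chr3:142530086-142530385, plus strand): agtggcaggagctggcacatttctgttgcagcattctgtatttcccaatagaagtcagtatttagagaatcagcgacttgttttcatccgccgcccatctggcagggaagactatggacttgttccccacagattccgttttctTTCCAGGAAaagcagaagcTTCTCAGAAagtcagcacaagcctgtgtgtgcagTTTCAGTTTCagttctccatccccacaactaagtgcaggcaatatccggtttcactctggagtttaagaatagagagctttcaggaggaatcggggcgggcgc
Gbp3 (chr3:142559794-142560093, plus strand): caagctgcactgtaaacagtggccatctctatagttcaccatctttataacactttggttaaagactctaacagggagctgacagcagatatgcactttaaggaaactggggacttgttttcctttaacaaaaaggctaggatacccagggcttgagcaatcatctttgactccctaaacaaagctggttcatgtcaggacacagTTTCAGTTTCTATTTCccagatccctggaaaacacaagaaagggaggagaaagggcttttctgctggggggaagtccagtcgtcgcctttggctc
Gbp2b (chr3:142594597-142594896, plus strand): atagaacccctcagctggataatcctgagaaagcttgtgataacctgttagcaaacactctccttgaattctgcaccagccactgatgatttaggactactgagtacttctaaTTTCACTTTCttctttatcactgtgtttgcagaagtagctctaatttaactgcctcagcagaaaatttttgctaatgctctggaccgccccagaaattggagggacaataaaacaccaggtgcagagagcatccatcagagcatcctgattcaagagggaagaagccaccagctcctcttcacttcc
Gbp2 (chr3:142620413-142620712, plus strand): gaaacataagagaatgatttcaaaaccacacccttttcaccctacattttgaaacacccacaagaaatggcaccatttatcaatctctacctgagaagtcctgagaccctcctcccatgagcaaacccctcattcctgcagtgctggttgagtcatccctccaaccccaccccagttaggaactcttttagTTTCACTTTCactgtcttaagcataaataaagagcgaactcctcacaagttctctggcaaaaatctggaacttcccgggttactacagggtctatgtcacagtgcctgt

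All 5 genes had an ISRE core in a window, which 3.44% of all 32851 windows and 3.99% of all 27025 genes with a window had. Every ISRE match lay on the strand opposite to transcription, so that it reads as TTTCNNTTTC in the lines above. In Gbp7, Gbp3 and Gbp2 a match began at positions -53, -45 and -59, counted in bases from the start as 0, and Gbp3 had a further match overlapping the first one. In Gbp5 and Gbp2b it began farther out, at -165 and -137. A GAS match occurred in 2 of the 5 genes, with 2 matches each in Gbp5 and Gbp7, against 8.30% of all windows and 9.55% of all genes. No GAS match overlapped an ISRE core. Both motifs together were found in 0.454% of all windows. Of the immunity-related GTPases, a family described below, 10 genes had a window, and 7 of these held an ISRE core and 5 a GAS. The second annotated start of Gbp3, not shown, had neither motif in its window. Gbp2b, which overlapped between groups, and its 4 lower neighbours thus all held an ISRE core. A match of letters is not evidence of binding in these cells, which was not measured.

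**Figure D3:**
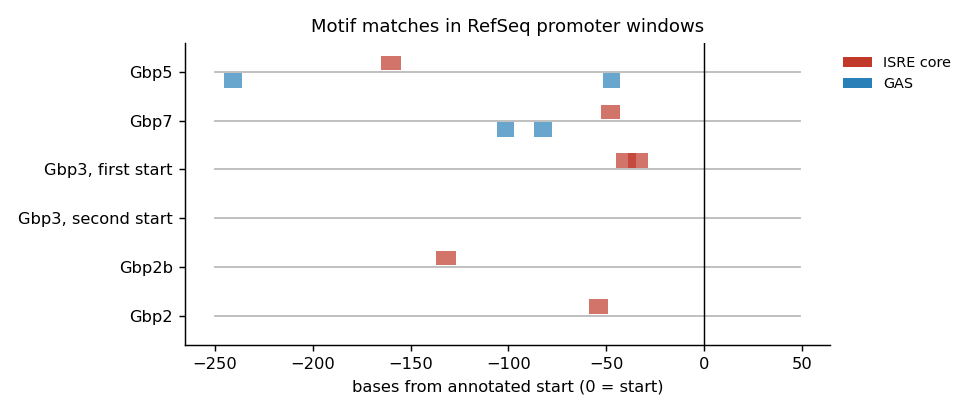
Positions of ISRE core (red) and GAS (blue) matches in the 6 RefSeq promoter windows of the chromosome 3 Gbp genes, in bases from the annotated start, which is 0. Each of the 5 genes has an ISRE core in a window, and only Gbp5 and Gbp7 have GAS matches.

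Gbp7, which in mouse macrophages helps to bring NADPH oxidase parts to vacuoles that hold bacteria, differed most. It was at 5.37, 5.58 and 5.23 on the JG-98 arrays and at 6.45, 6.70 and 6.25 on the control arrays. The JG-98 values all lay below the highest mean level of the organ genes, 5.59, and the control values above it. The highest treated value was 0.67 below the lowest control value, a gap wider than the range within either group. The difference was -1.07 ± 0.14 (SE, n = 3 per group), or 2.11-fold lower with JG-98. It lay between -1.18 and -0.96 when single arrays were left out, and at -0.99 without JG-98 replicate 3.

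Gbp2, a prenylated member that is recruited to Toxoplasma vacuoles and promotes responses to cytosolic bacteria, was at 4.44, 4.59 and 4.82 with JG-98 and at 5.01, 5.13 and 5.01 in controls. All treated values were lower, and the treated samples spread more widely than the controls (SD 0.19 with JG-98 and 0.071 in controls, n = 3 each). The difference of -0.44 ± 0.11 (SE, n = 3 per group) corresponds to a 1.35-fold lower level. JG-98 replicate 3 had the smallest shift, and without it the difference was -0.54.

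Gbp3 and Gbp5 lay among the dim members. Gbp3 belongs to the chromosome 3 group whose joint deletion makes mice more susceptible to Toxoplasma. It was at 2.86, 2.81 and 2.49 with JG-98 and at 3.69, 3.55 and 3.27 in controls. The groups were 0.41 apart, about the range within the treated or the control group, and the difference was -0.78 ± 0.14 (SE, n = 3 per group), and -0.66 without JG-98 replicate 3. Gbp5, which promotes assembly of the NLRP3 inflammasome, was at 3.03, 2.96 and 2.97 with JG-98 and at 3.85, 3.24 and 3.35 in controls. Its treated values lay within 0.070 of each other, while control replicate 1 was well above the other two controls. The difference was -0.49 ± 0.16 (SE, n = 3 per group), and -0.30 without control replicate 1 and -0.48 without JG-98 replicate 3. Both genes lay within the range of the organ genes, so a fold change computed from them may understate a change in transcript.

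Gbp2b, the gene formerly called Gbp1 and another prenylated member, was the exception on chromosome 3. It was at 2.35, 2.65 and 2.87 with JG-98 and at 2.21, 2.69 and 2.59 in controls. The groups overlapped, and the difference of 0.12 ± 0.17 (SE, n = 3 per group) ranged from -0.02 to 0.26 when single arrays were left out and was 0.00 without JG-98 replicate 3. Any difference in Gbp2b was smaller than the spread between replicates.

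On chromosome 5, Gbp9 was the 1 member of 5 whose JG-98 values all lay below the control values. It was at 6.58, 6.56 and 6.24 with JG-98 and at 7.03, 7.23 and 7.13 in controls. All 6 values lay above the highest mean level of the organ genes, and the groups were 0.45 apart. The difference was -0.67 ± 0.11 (SE, n = 3 per group), which is 1.59-fold lower, and -0.56 without JG-98 replicate 3, which had the lowest value.

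Gbp8 and Gbp10, also bright, showed no separation. Gbp8 was at 6.67, 6.59 and 6.19 with JG-98 and at 6.61, 6.45 and 6.58 in controls, a difference of -0.06 ± 0.14 (SE, n = 3 per group). JG-98 replicate 3 lay below all controls and the other two treated values among or above them, and without that array the difference was 0.08. Gbp10 was at 5.41, 5.17 and 5.70 with JG-98 and at 5.49, 5.40 and 5.45 in controls, a difference of -0.02 ± 0.13 (SE, n = 3 per group). JG-98 replicate 3 was the highest of the 6 arrays for Gbp10, and without it the difference was -0.16. In both genes the treated arrays spread more widely than the controls, with SDs of 0.26 and 0.27 with JG-98 and of 0.086 and 0.042 in controls.

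Gbp4 and Gbp11 had the lowest signals. Gbp4 was at 1.58, 1.38 and 1.92 with JG-98 and at 1.34, 1.35 and 1.22 in controls. The treated values were higher, but the lowest of them exceeded the highest control value by only 0.025. The difference was 0.32 ± 0.14 (SE, n = 3 per group), and 0.17 without JG-98 replicate 3. Gbp11, which the RefSeq table annotates as a transcribed pseudogene, was at 2.00, 1.93 and 1.81 with JG-98 and at 1.72, 2.20 and 1.99 in controls. Its groups overlapped, with a difference of -0.05 ± 0.13 (SE, n = 3 per group). That difference was 0.00 without JG-98 replicate 3, and it ran from -0.18 without control replicate 1 to 0.06 without control replicate 2. Family members resemble each other closely in sequence, and how far probes are shared between them was not tested.

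**Figure D4:**
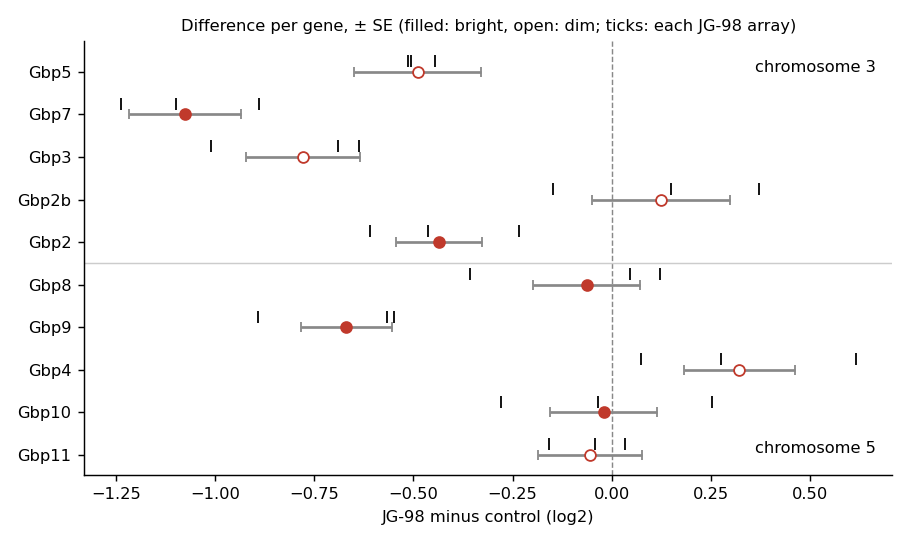
Difference of each Gbp gene, JG-98 minus control in log2 units, with the SE of limma (n = 3 per group); filled points are bright and open points dim members, ticks above each point are the 3 JG-98 arrays minus the control mean, and the dashed line is the median of all probe sets. Gbp7 lies farthest left at -1.07, and Gbp2, Gbp3, Gbp5 and Gbp9 also have all ticks left of the line.

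The genes whose profiles over the 6 arrays came closest to a bright member were sought among 10529 other named bright genes, by the root mean square difference between gene-centred log2 values. Closest to Gbp7 were Mmp27, P2ry12 and Ms4a6b, at 0.18, 0.19 and 0.21, and these were lower with JG-98 by -0.85, -0.85 and -0.80. Closest to Gbp9 were Tcp11l2, Tmem71 and Pdcd4, at 0.077 to 0.094, and closest to Gbp2 were Etl4, Rnf144b and Depdc1b, at 0.044 to 0.080. No profile was as near to Gbp7 as the nearest ones were to Gbp9 or Gbp2. The values were centred but not scaled, so this distance can grow with the size of a difference, and Gbp7 differed most. For Gbp8 (Tmem60, Slc35a1 and Dbf4) and Gbp10 (Arc, Mir1247 and Dnajb5) the nearest profiles, at 0.021 to 0.044, were those of other genes with little difference between groups. The search picks genes with a difference like that of the member, so a like direction is not a separate result.

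Some immunity-related GTPases were also lower with JG-98. Several of these GTPases are interferon-induced and act with guanylate-binding proteins on parasite vacuoles, and 9 of 13 listed family members were measured. In limma 0 passed the adjusted threshold, and at an unadjusted p under 0.05 there were 4 lower and 1 higher, where 4.48% of all probe sets were lower. In 3 of them, Ifi47, Irgq and Irgm2, all JG-98 values were below all control values, and in 0 above, and the median difference was -0.25. Of the 9, 6 were bright, and 14.5% of bright and 8.44% of all probe sets were lower without overlap. The share of all probe sets that were higher without overlap was 7.12%. That median was -0.16 with control replicate 1 left out. With control replicate 3 left out the lower genes numbered 5, where 12.7% of all probe sets were lower without overlap. Such a count cannot fall when an array is left out. Ifi47 was at 6.86, 6.63 and 6.79 with JG-98 and at 7.31, 7.23 and 7.22 in controls, a difference of -0.49 ± 0.081 (SE, n = 3 per group). The regulatory members Irgm1 and Igtp differed by -0.25 ± 0.098 and -0.25 ± 0.18, with overlapping groups.

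Among the interferon receptors and their signalling genes, 21 of 22 listed were measured and 0 passed limma's adjusted threshold. At an unadjusted p under 0.05 there were 2, Irf1 and Usp18, both lower. Of all probe sets 8.32% passed that limit in either direction and 4.48% were lower. Groups did not overlap in 6 lower genes and 1 higher gene. Of the 21, 16 were bright, and 14.5% of bright and 8.44% of all probe sets were lower in this way. The share of all probe sets that were higher in this way was 7.12%. The median difference was -0.08, and it came to -0.04 when JG-98 replicate 3 was left out and to -0.05 when control replicate 3 was. Irf1, a transcription factor that binds the ISRE, was at 6.49, 6.38 and 6.50 with JG-98 and at 6.69, 6.65 and 6.66 in controls, a difference of -0.21 ± 0.066 (SE, n = 3 per group). The receptor subunits for interferon-gamma, Ifngr1 and Ifngr2, differed by -0.09 ± 0.064 and -0.16 ± 0.070, both without overlap. The kinase gene Jak2 differed by 0.13 ± 0.080, also without overlap. Usp18, which dampens type I interferon signalling, differed by -0.45 ± 0.18 with overlapping groups. Nlrc5 had the largest rise of the list, 0.23 ± 0.11, also with overlapping groups.

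Lists of genes for the handling of guanylate-binding proteins, or otherwise linked to them, had small median differences. In limma 0 genes passed the adjusted threshold in any of these lists. The median was -0.07 over 5 prenylation enzymes, which attach the lipid anchor of some members, and none of these had an unadjusted p under 0.05. It was -0.02 over 10 genes of the ATG8 lipidation machinery, which guides the proteins to vacuoles, with Map1lc3b lower at an unadjusted p under 0.05 (-0.25 ± 0.083). It was -0.06 over 8 inflammasome genes and 0.00 over 6 related large GTPases such as the atlastins and Mx proteins. None had an unadjusted p under 0.05 in either list. That limit was passed by 8.32% of all probe sets in either direction, with 4.48% lower. Groups did not overlap in 1 lower prenylation gene, 1 lower and 1 higher ATG8 gene, 1 lower inflammasome gene and 2 higher large GTPases. Of all probe sets 8.44% were lower and 7.12% higher in this way, and 14.5% of bright ones were lower. Single genes ran from -0.25 for Map1lc3b to 0.21 ± 0.098 for Mx1, a dim gene. Single arrays set the sign or size of these medians. With JG-98 replicate 3 left out, the inflammasome median was 0.03 and the ATG8 median 0.01. Over all 6 ways of leaving out 1 array the medians ran from -0.09 to 0.03 for inflammasome genes, from -0.06 to 0.01 for the ATG8 machinery, from -0.09 to -0.02 for prenylation enzymes and from -0.03 to 0.02 for the related large GTPases.

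**Figure D5:**
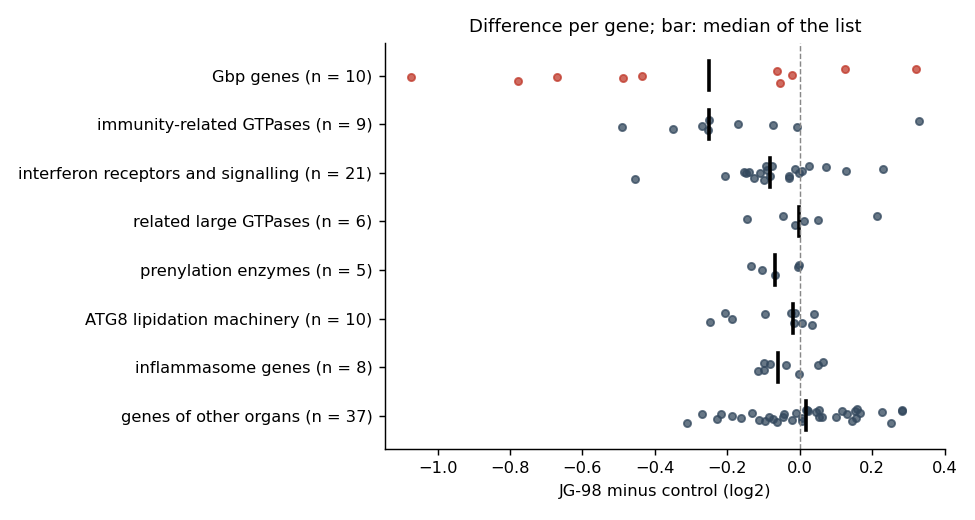
Difference of each gene, JG-98 minus control in log2 units, for the Gbp genes (red) and 7 other lists (blue), with a black bar at the median of each list. The Gbp genes range from -1.07 to 0.32. Their median is -0.25, and that of the immunity-related GTPases is -0.25. When single arrays are left out, the Gbp median runs from -0.32 to -0.24 and that of these GTPases from -0.29 to -0.16.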

How the data were processed

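The authors supplied 1 log2 value for each probe set on each array. Per the submitters' processing notes, the tools were RMA, affy and R 2.15.1, and what each did is not said. RMA generally corrects background, normalizes by quantiles and summarises probes, and it compresses differences between dim probe sets. For the probe sets no genome build is stated. No detection p-value was used, and precision is limited by the number of arrays.

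Of 25206 probe sets, 23185 had 1 symbol in the platform annotation, updated by Entrez number, and 2021 had none. Differences were fitted with lmFit and eBayes of limma 3.58.1 under R 4.3.3, two-sided and with no covariate, with adjustment over all probe sets, and the fit was tested on simulated data. Members and lists were chosen with earlier results of these data known. The 4 genes of each list with the smallest p, and Irf1, Ifngr1, Ifngr2, Jak2, Irgm1, Igtp and Ifi47, could be named. Alternatives were other normalizations, a filter on dim probe sets, other variance priors, array weights (statmod 1.5.0), a replicate block, other brightness limits and leaving out each array. Motifs were sought in RefSeq promoter windows.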

Additional observations from a re-analysis of the deposited data

How the results depend on the processing

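The number of probe sets that limma called was 10, against 152 after a filter on dim probe sets, 254 with an intensity trend, 25 with array weights and 0 with a replicate block. It was 0 to 5 when single arrays were left out. For the Gbp genes the number called was 0, against 2 (Gbp7 and Gbp9) with the filter or the intensity trend, and it was 0 in each fit without 1 array. The cause was not tested. The median difference of the bright Gbp genes was -0.44, against -0.54 with array weights, and it ran from -0.54 to -0.35 when single arrays were left out. That of the dim ones was -0.05, ran from -0.18 to 0.061 when single arrays were left out, and was -0.25 when a limit of 6 put 8 members among them. The number of members with groups that did not overlap stayed at 6 under both other normalizations. It was also 6 without any 1 array, but leaving out an array cannot lower this number.

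Replicate numbers are shared between the groups, but no label says what they stand for. Deviations of same-numbered arrays from their group means correlated at 0.095, -0.126 and 0.104. Of the JG-98 arrays, only replicate 1 correlated best with the control of its own number. Replicate 2 correlated best with control replicate 1 (0.203) and replicate 3 with control replicate 2 (0.135). With the block, 0 Gbp genes were called and 5 had an unadjusted p under 0.05, as without it. Dim signals, which lie within or below the range of genes of other organs, limit what can be said of Gbp2b, Gbp3, Gbp4, Gbp5 and Gbp11. On the JG-98 arrays the bright members Gbp2 and Gbp7 also lay within that range.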
